A study of Homo sapiens with 42 samples.

Results

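Aminoacyl-tRNA synthetases are the enzymes that join each amino acid to its transfer RNA. The RNA of their genes was examined here in human leukaemia cells in which ENL (gene MLLT1), a chromatin reader that helps keep leukaemia genes transcribed, was degraded, inhibited or targeted by guides. The 35 genes were chosen by name. They comprise 19 that encode cytosolic enzymes (names ending in 1, with FARSA and FARSB) and 16 that encode mitochondrial enzymes (names ending in 2), out of 58721 gene identifiers in each of the 4 count tables. All 35 were found, 17 of them under an older symbol such as AARS for AARS1, and all 35 passed the filter on low counts in every table.

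RNA was sequenced from 42 libraries in 15 groups. MV4;11 is a myeloid and SEMK2 a B-lineage leukaemia line, and the labels give wild type as the genotype. MV4;11 cells received DMSO, MS41 (the ENL degrader of the study), MS41N or PFI-6 (a small-molecule inhibitor of the ENL reader domain) for 6 or 24 h, at 100 nM for each compound, with 3 libraries per group. SEMK2 cells received DMSO or MS41 at 100 nM, with 3 libraries each and no stated choice between both times. The guide experiment used MV4;11 cells with 1 control guide and with 2 guides against ENL, called ENL guide 1 and 2, each in 2 libraries that are labelled wild type like the rest. MV4;11 cells were also taken from mice after vehicle or MS41 (3 libraries per group), for which no dose, time, age or strain is stated. The name MS41N is that of the sample titles, and the protocol text has MS47N in its place. Every library was made from polyadenylated RNA, and nothing states that replicates came from separate cultures or animals, so p-values measure a spread that may be technical.

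Total counts ranged from 77.22 to 230.6 per library, in units of 1000000. SEMK2 DMSO replicate 3 was the deepest library, and it differed from the other libraries of its group by a chi-square of 58.5 to 65.2 per gene, where the other 2 differed by 12.1. The SEMK2 counts, medians and named genes are therefore given with and without it. Myeloid markers were present in all MV4;11 groups (summed counts per 1000000, CPM, of 821 to 9030 for 6 genes) and low in SEMK2 (57.8 to 74.3). Markers of the B lineage summed to 1590 to 1690 CPM in SEMK2 and to at most 4.37 CPM in MV4;11. In the cells from mice, the vehicle and MS41 libraries with the same replicate number mirrored each other, in a way described with the in vivo result below.

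Most amino acids have their own synthetase in the cytosol, and mitochondria use a second set, mostly encoded by separate nuclear genes and imported. GARS1 and KARS1 encode enzymes that serve both compartments. Several cytosolic synthetases sit in a multi-synthetase complex, and uncharged transfer RNA activates the kinase GCN2 (gene EIF2AK4), which raises translation of the transcription factor ATF4. Many cytosolic synthetase genes are known ATF4 targets, and ATF4 with a C/EBP partner binds composite elements of the form TGATGNAAN. MYC and related factors bind the E-box CACGTG.

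Promoter windows of 300 bases (250 before the start of the RefSeq gene and 50 from it) were available for 30 of the 35 genes, from RefSeq on GRCh38.p14. Stretches are shown for the cytosolic genes with a TGATGNAAN match and for the mitochondrial genes with an E-box. The shares of the compartments were not tested against each other. TGATGNAAN was searched on both strands. It was found in 6 of 16 cytosolic windows (37.5%), in 1 of 14 mitochondrial windows (7.14%) and in 1002 of all 27305 windows (3.67%). The mitochondrial match was in YARS2, lies far upstream of the start and is not shown. All 6 cytosolic matches lay among the 10 windows of genes listed as ATF4 targets (60.0%), and none in the 6 windows of the other cytosolic genes. That list was made with earlier results of these data known. Written 5′ to 3′ on the gene strand, with the match in capitals (on either strand), the stretches from 50 bases before to 24 bases after the start are as follows, except for AARS1, whose stretch lies further upstream because its match begins 188 bases before the start.
CARS1: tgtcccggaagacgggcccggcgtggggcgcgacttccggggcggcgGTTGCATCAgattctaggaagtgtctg
IARS1: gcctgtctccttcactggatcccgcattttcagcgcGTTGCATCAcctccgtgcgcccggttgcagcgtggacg
MARS1: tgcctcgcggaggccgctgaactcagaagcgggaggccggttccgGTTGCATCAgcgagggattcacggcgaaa
NARS1: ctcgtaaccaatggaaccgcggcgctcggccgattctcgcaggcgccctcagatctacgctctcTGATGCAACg
TARS1: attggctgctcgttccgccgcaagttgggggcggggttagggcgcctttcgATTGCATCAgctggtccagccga
AARS1: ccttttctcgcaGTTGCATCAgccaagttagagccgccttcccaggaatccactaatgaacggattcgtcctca

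The windows of these genes lie at chr11:3057374-3057673 (CARS1, minus strand), chr9:92293648-92293947 (IARS1, minus), chr12:57487818-57488117 (MARS1, plus), chr18:57621787-57622086 (NARS1, minus), chr5:33440715-33441014 (TARS1, plus) and chr16:70289457-70289756 (AARS1, minus). In NARS1 and TARS1 the match began after the start, at bases 15 and 2 of the transcript, and in CARS1 and MARS1 it ran across the start. With only the bases before the start searched, 2 of 16 cytosolic windows (12.5%) and 1 of 14 mitochondrial windows (7.14%) held the motif, against 3.18% of all windows. A match describes letters and not binding, which was not measured.

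CACGTG, which reads the same on both strands, was found in 3 of 14 mitochondrial windows (21.4%), in 1 of 16 cytosolic windows (IARS1, 6.25%) and in 7.43% of all windows. Before the start it was found in 2 of 14 mitochondrial windows (14.3%), 1 of 16 cytosolic windows (6.25%) and 6.49% of all windows. The IARS1 match lies far upstream of the start and is not shown. The mitochondrial genes with a match in the whole window were CARS2, EARS2 and MARS2. Their stretches around the start, with the E-box in capitals, are these.
CARS2: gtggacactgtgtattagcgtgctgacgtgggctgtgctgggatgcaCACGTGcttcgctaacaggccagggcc
EARS2: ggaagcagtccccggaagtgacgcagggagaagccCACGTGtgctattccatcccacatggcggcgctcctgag
MARS2: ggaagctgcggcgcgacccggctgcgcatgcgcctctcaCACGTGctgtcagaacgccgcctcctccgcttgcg

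These windows lie at chr13:110706466-110706765 (CARS2, minus), chr16:23557301-23557600 (EARS2, minus) and chr2:197705119-197705418 (MARS2, plus).

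The median level of the cytosolic genes was above that of the mitochondrial genes in every control group. Levels between genes are given as CPM per kilobase of merged exon (CPM per kb). In MV4;11 with DMSO for 24 h the median was 68.5 CPM per kb over the 19 cytosolic genes, with a range from 16.1 (CARS1) to 132 (EPRS1). The 16 mitochondrial genes had a median of 11.2 CPM per kb, with a range from 0.854 (SARS2) to 76.1 (IARS2). For 13 amino acids both a gene ending in 1 and a gene ending in 2 were listed, and the cytosolic gene had the higher level for 12 of them, with a median ratio of 4.39. CARS1 was the exception, at 0.453 times the level of CARS2, and SARS1 had the largest ratio, 58.5. SEMK2 with DMSO had medians of 72.8 and 11.6 CPM per kb, and there the cytosolic gene was the higher in all 13 pairs. It was the higher in 12 of 13 with DMSO for 6 h, in 12 of 13 with the control guide and in 10 of 13 in the vehicle cells from mice. SARS2 shares 83.12% of its exon bases with an overlapping gene model, so its counts are uncertain and its ratio with them. HARS1 and HARS2 are transcribed away from each other and share 9.49% and 14.17% of their exon bases, and the strand setting of the counting is not given in the sources used here.

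With MS41 for 6 h, 22 of the 35 genes fell and none rose, by edgeR's quasi-likelihood test with a Benjamini-Hochberg adjusted p below 0.05, the meaning of "called" from here on. The falls were small. The median log2 fold change was -0.14 over the 19 cytosolic genes, of which 16 fell, and -0.06 over the 16 mitochondrial genes, of which 6 fell. Over all 22711 genes tested the median was 0.02, 26.0% were called and 13.8% were called lower. MARS2, the mitochondrial methionyl-tRNA synthetase, fell the most, followed by PARS2 and FARSB. AARS1, CARS1 and QARS1 were the cytosolic genes not called at 6 h, with log2 fold changes of 0.01, 0.07 and -0.01.

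With MS41 for 24 h, 29 of the 35 genes fell and none rose, against 44.3% of all genes called and 22.9% called lower. The cytosolic genes had a median log2 fold change of -0.48, with 17 of 19 lower, and the mitochondrial genes a median of -0.30, with 12 of 16 lower. The median over all genes tested was 0.02. The cytosolic genes not called were QARS1 (0.03) and SARS1 (-0.07). The mitochondrial genes not called were HARS2, SARS2, TARS2 and VARS2, with values from -0.12 to 0.06. Summed over the 19 cytosolic genes, the libraries held 5051 ± 36.5 CPM with DMSO and 3647 ± 79.5 CPM with MS41 (SD, n = 3 each). The mitochondrial sum was 784.1 ± 2.66 CPM with DMSO and 638.2 ± 16.6 CPM with MS41. Neither sum overlapped between the groups. In bulk RNA, fewer cells of a type and less RNA per cell cannot be told apart.

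**Figure D1:**
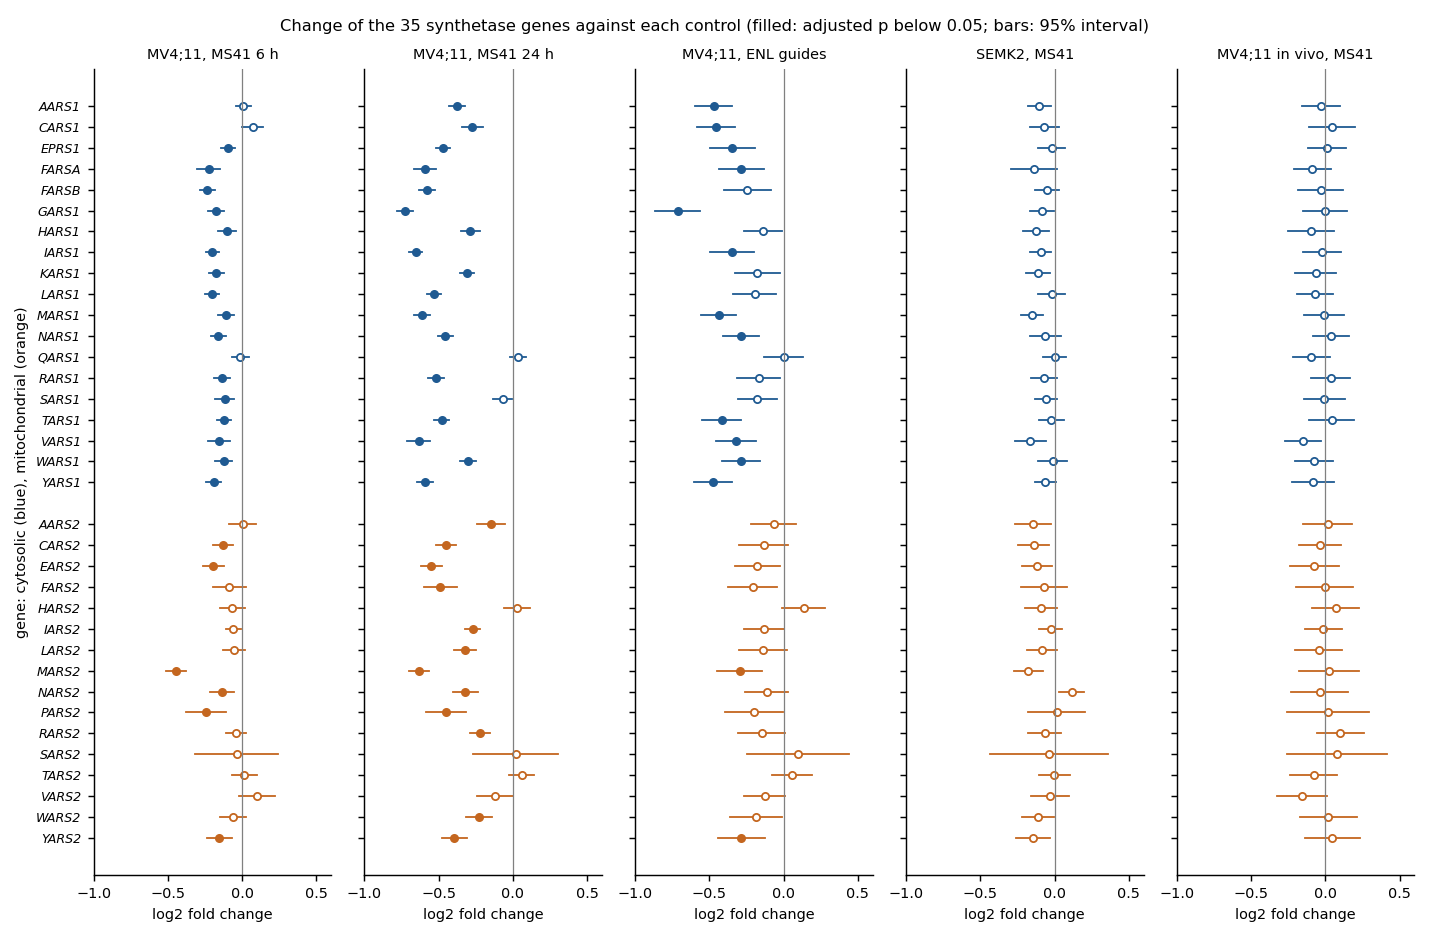
Log2 fold change of each of the 35 genes against its control in 5 comparisons, with 95% intervals as bars and filled points where the adjusted p was below 0.05 (edgeR). With MS41 for 24 h 29 points are filled and lie below 0, with the ENL guides 14, and in SEMK2 and in vivo none.

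GARS1, the glycyl-tRNA synthetase gene (ENSG00000106105, chr7:30594681-30634033), showed the largest fall at 24 h. It stood at 267, 269 and 262 CPM with DMSO and at 165, 162 and 155 CPM with MS41. The groups lay far apart relative to their spread, with a log2 fold change of -0.73 ± 0.03 (SE, adjusted p = 5.7e-27 in edgeR, n = 3 each). At 6 h the values were 233, 243 and 243 CPM with DMSO and 217, 216 and 203 CPM with MS41, again without overlap (log2 fold change -0.17).

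IARS1, the isoleucyl-tRNA synthetase gene, encodes a member of the multi-synthetase complex. It stood at 600, 594 and 594 CPM with DMSO for 24 h and at 379, 383 and 374 CPM with MS41. All 3 MS41 libraries were well below all 3 DMSO libraries (log2 fold change -0.65 ± 0.02). MARS1, the methionyl-tRNA synthetase gene of the same complex, stood at 155, 151 and 154 CPM with DMSO and at 101, 103 and 97.8 CPM with MS41 (log2 fold change -0.61 ± 0.03). The 3' ends of MARS1 and DDIT3 overlap over 2.13% of the MARS1 exon bases, and DDIT3 itself was not called at 24 h (-0.03 ± 0.12).

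VARS1, the valyl-tRNA synthetase gene, stood at 176, 171 and 186 CPM with DMSO for 24 h and at 114, 120 and 110 CPM with MS41. YARS1, the tyrosyl-tRNA synthetase gene, stood at 220, 223 and 223 CPM with DMSO and at 149, 148 and 144 CPM with MS41. Both were separated between the groups, with log2 fold changes of -0.64 ± 0.04 for VARS1 and -0.59 ± 0.03 for YARS1. FARSA and FARSB encode the alpha and beta subunits of the phenylalanyl-tRNA synthetase. FARSA stood at 137, 141 and 145 CPM with DMSO and at 92.2, 96.7 and 91.8 CPM with MS41, and FARSB at 186, 182 and 181 CPM against 122, 126 and 119 CPM. The subunit genes moved by close amounts, -0.59 ± 0.04 for FARSA and -0.58 ± 0.03 for FARSB.

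MARS2 had the most negative value of the 35 genes at 6 h. At that time it stood at 44.4, 45.1 and 45.9 CPM with DMSO and at 33.8, 33.2 and 32.4 CPM with MS41 (log2 fold change -0.44 ± 0.03, adjusted p = 3.3e-14 in edgeR). At 24 h it stood at 48.6, 49.0 and 46.9 CPM with DMSO and at 30.5, 31.9 and 30.8 CPM with MS41 (-0.63 ± 0.03). It was called at both times, and as falling further at 24 h (difference -0.19). Its timing was not tested against that of the cytosolic genes. PARS2, the mitochondrial prolyl-tRNA synthetase gene, was low throughout. It stood at 8.61, 8.94 and 7.95 CPM with DMSO for 6 h and at 7.59, 7.17 and 6.81 CPM with MS41, without overlap, and its log2 fold changes were -0.24 ± 0.07 at 6 h and -0.45 ± 0.07 at 24 h.

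**Figure D2:**
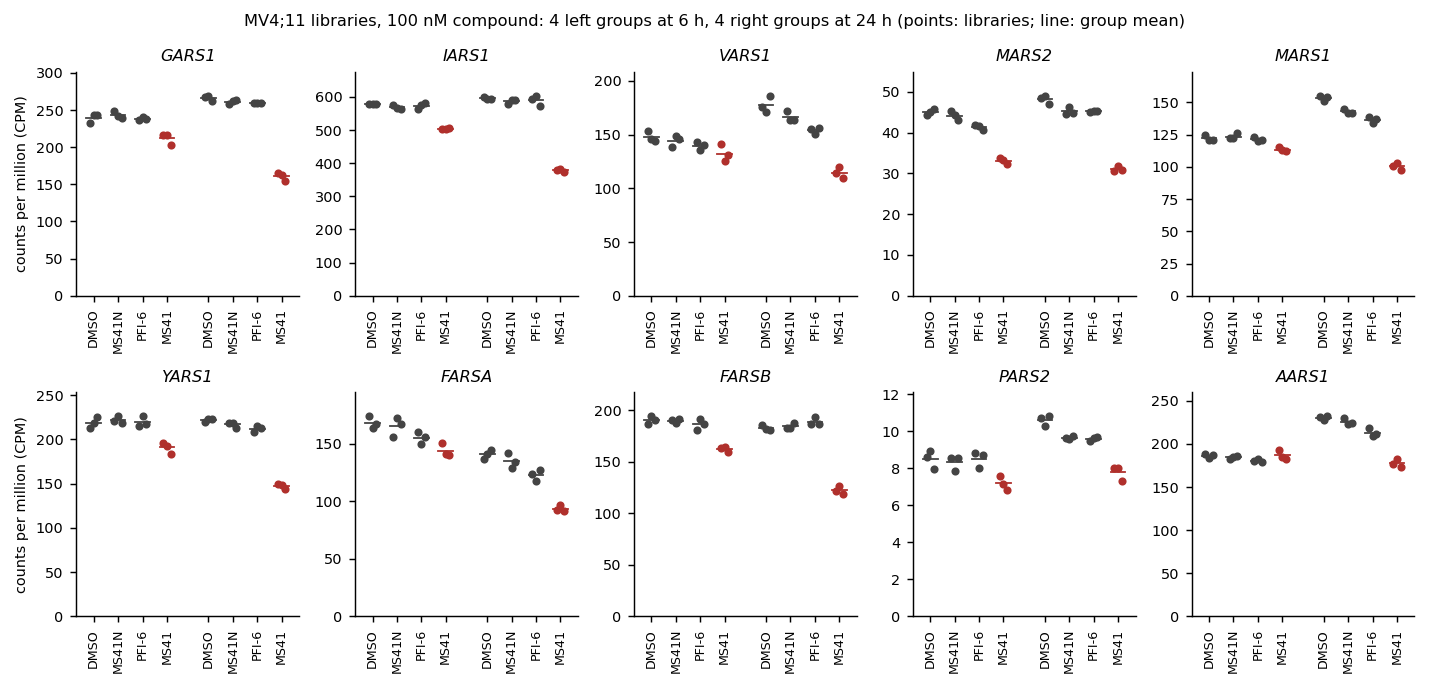
CPM of the 10 genes followed by library in the MV4;11 compound libraries (points: libraries; lines: group means; the left 4 groups at 6 h, the right 4 at 24 h; MS41 in red). At 24 h every MS41 library lies below every DMSO library in all 10 panels, and in AARS1 the 6 h groups overlap. Most of these genes were chosen for their called change with MS41 for 24 h, so their separation there follows from the choice. The share of all genes separated in this way was not counted.

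The effect of MS41 was larger at 24 h than at 6 h for most of the genes. The difference itself was tested in the shared fit, and 28 of 35 genes, 17 cytosolic and 11 mitochondrial, were called as lowered further at the later time. None was called the other way. Of the 35 differences 30 were below 0, and the highest was 0.09. Over all genes 26.4% were called and 14.5% were called lower. The median difference was -0.36 for the cytosolic and -0.20 for the mitochondrial genes. GARS1 had the largest difference, -0.55 ± 0.04. AARS1, the alanyl-tRNA synthetase gene, went from 188, 184 and 187 CPM with DMSO and 193, 185 and 183 CPM with MS41 at 6 h to 231, 228 and 232 CPM with DMSO and 177, 183 and 173 CPM with MS41 at 24 h. Its groups overlapped at 6 h and were separate at 24 h (-0.38 ± 0.03), and the difference between the times was -0.38 ± 0.04.

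The control cells themselves changed between the times. From 6 to 24 h in DMSO 18 of the 35 genes rose and 4 fell, against 30.2% of all genes called, 16.7% higher and 13.5% lower. TARS1, the threonyl-tRNA synthetase gene, rose by 0.51 ± 0.02 on the log2 scale, CARS1 by 0.41 ± 0.04 and IARS2 by 0.40 ± 0.03. WARS1, the tryptophanyl-tRNA synthetase gene, which interferon is known to induce, fell the most, from 304, 295 and 303 CPM to 175, 173 and 173 CPM (-0.79 ± 0.03). AARS1 with MS41 thus stayed within 173 to 193 CPM across both times, while its DMSO level rose by 0.31 ± 0.03.

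Neither of the other compounds gave such falls. With MS41N none of the 35 genes was called at 6 or 24 h in edgeR or in DESeq2, with 2 genes at 6 h and 6 at 24 h below an unadjusted p of 0.05. Over all genes, 0.321% were called at 6 h and 0.0352% at 24 h. GARS1 with MS41N for 24 h stood at 258, 262 and 263 CPM, with a log2 fold change of -0.03 and a 95% interval from -0.08 to 0.02. With PFI-6 for 6 h MARS2 was the only 1 of the 35 called, at 41.9, 41.6 and 40.6 CPM against 44.4, 45.1 and 45.9 CPM with DMSO (-0.12 ± 0.03), where 2.05% of all genes were called and 1.39% called lower. Leaving out any 1 of the 6 libraries of this comparison ended the call, and so did using no filter on low counts.

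With PFI-6 for 24 h 8 of the 35 genes were called, all lower, against 12.4% of all genes called and 6.78% called lower. They were AARS1, FARSA, MARS1, QARS1 and VARS1 of the cytosolic and AARS2, CARS2 and FARS2 of the mitochondrial genes, with log2 fold changes from -0.22 to -0.11. With the trend of fold change with GC content removed, 1 of the 8 was still called (MARS1), while the calls over all genes went from 2806 to 363. IARS1, which had the second largest fall with MS41, stood at 595, 603 and 573 CPM with PFI-6 for 24 h and overlapped DMSO.

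Set against the other compounds at the same dose and time, MS41 was lower for most of the cytosolic genes. Each pair of the 3 compounds was compared at both times, and each p was adjusted over all genes of its comparison. Against MS41N, 29 genes were lower and 1 (QARS1, 0.11 ± 0.03) was higher at 24 h, where 42.4% of all genes were called and 21.9% called lower. At 6 h 19 were lower and 1 (TARS2, 0.14 ± 0.04) was higher, against 21.8% and 11.7%. Against PFI-6, 28 were lower and 1 (QARS1, 0.17 ± 0.03) was higher at 24 h, against 42.3% called and 21.6% called lower. At 6 h 17 were lower and none higher, against 19.5% and 10.1%. GARS1 was lower with MS41 than with PFI-6 by 0.69 on the log2 scale at 24 h, with a 95% interval of the MS41 difference from -0.74 to -0.64. PFI-6 and MS41N did not differ by the test for any of the 35 genes in edgeR or DESeq2, with 2 genes at 6 h and 8 at 24 h below an unadjusted p of 0.05, and 0.0132% and 0.106% of all genes called. The log2 differences of PFI-6 from MS41N lay between -0.23 and 0.06 at 6 h and between -0.13 and 0.05 at 24 h. These comparisons share the MS41, PFI-6 or MS41N libraries and are not independent.

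With the ENL guides the falls lay mostly among the cytosolic genes. MLLT1 itself, the targeted gene, stood at 223 and 250 CPM with the control guide, at 181 and 190 CPM with ENL guide 1 and at 123 and 127 CPM with ENL guide 2. Against the control guide, both ENL guides together lowered 14 of the 35 genes and raised none, against 10.3% of all 17984 genes called and 4.98% called lower. Of the cytosolic genes 12 of 19 fell, with a median log2 fold change of -0.29, and of the mitochondrial genes only MARS2 (-0.30 ± 0.07) and YARS2 (-0.28 ± 0.07) fell, with a median of -0.14 over all 16. Without control replicate 2 no mitochondrial gene was called (median -0.07) and MARS2 and YARS2 stood at -0.20 and -0.21, and without control replicate 1, 5 were called (median -0.21). The difference between the compartments was not tested. In all 13 pairs of a cytosolic and a mitochondrial gene the cytosolic gene had the more negative value with the guides, and in 11 of 13 with MS41 for 24 h, where CARS2 and MARS2 had the more negative one. The same tally was 9 of 13 with MS41N for 24 h and 9 of 13 in vivo, where no gene of the 35 was called, 8 of 13 with PFI-6 for 24 h and 7 of 13 in SEMK2. All 14 genes lower with the guides were among the 29 lower with MS41 for 24 h (48.3% of the 29 and 100.0% of the 14). Those 29 are 82.9% of the 35 genes, so most of any 14 would be among them.

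**Figure D3:**
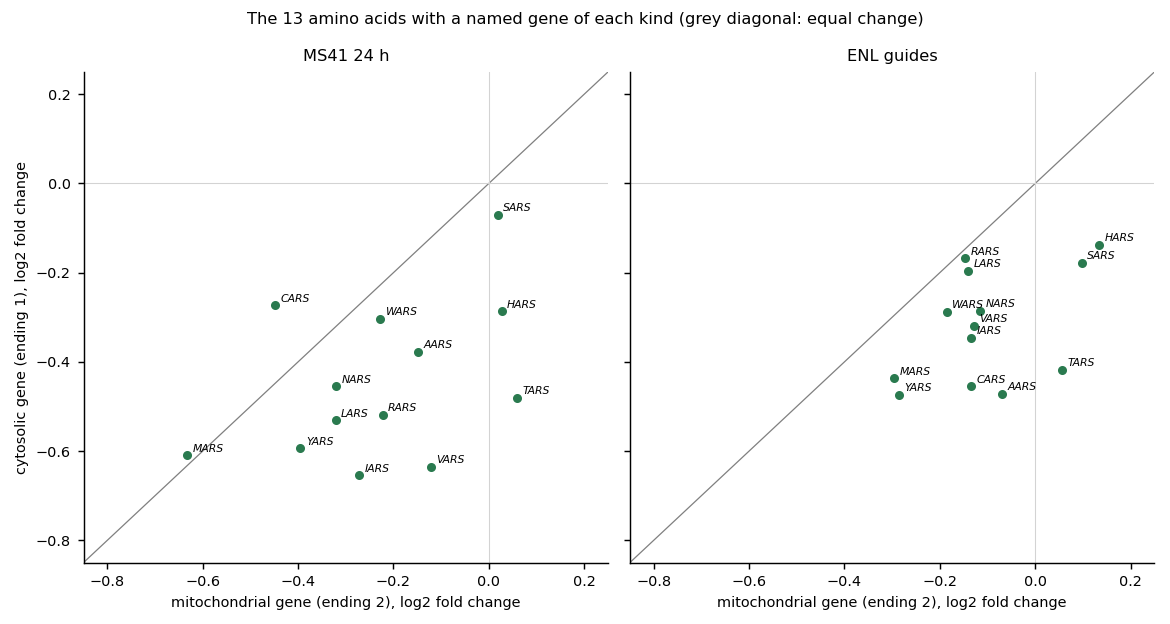
Log2 fold change of the cytosolic gene (vertical axis) against the mitochondrial gene (horizontal axis) for 13 amino acids, with MS41 for 24 h on the left and with the ENL guides on the right; each point is an amino acid, labelled by the shared part of its gene names. With the guides all 13 points lie below the diagonal of equal change, and with MS41 for 24 h 11 of them.

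GARS1 again had the largest fall. It stood at 331 and 340 CPM with the control guide, at 182 and 217 CPM with ENL guide 1 and at 207 and 213 CPM with ENL guide 2. Both guides were below both controls (log2 fold change -0.71 ± 0.07, adjusted p = 6.4e-05 in edgeR). AARS1 stood at 379 and 362 CPM with the control guide and at 256, 265, 270 and 278 CPM with the ENL guides (-0.47 ± 0.06). YARS1 stood at 309 and 329 CPM with the control guide and at 220, 230, 234 and 234 CPM with the ENL guides (-0.47 ± 0.06), so these genes too were separated between the groups.

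Guide 1 lowered 12 genes, against 7.48% of all genes called and 3.14% called lower, and guide 2 lowered 11, against 4.94% and 1.76%. Both counts use the same control libraries. No gene of the 35 differed between the guides (0.0% of all genes called, none of the 35 below an unadjusted p of 0.05, and none in DESeq2). GARS1 was 0.08 higher with guide 2 on the log2 scale, with a 95% interval from -0.10 to 0.26.

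The number of genes called depended on the control libraries. Control replicate 2 had the higher level of IARS1 (465 against 417 CPM), VARS1 (310 against 278 CPM), FARSA (332 against 284 CPM) and FARSB (144 against 120 CPM). Without control replicate 1, 22 genes were lower, and without control replicate 2, 11 were.

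**Figure D4:**
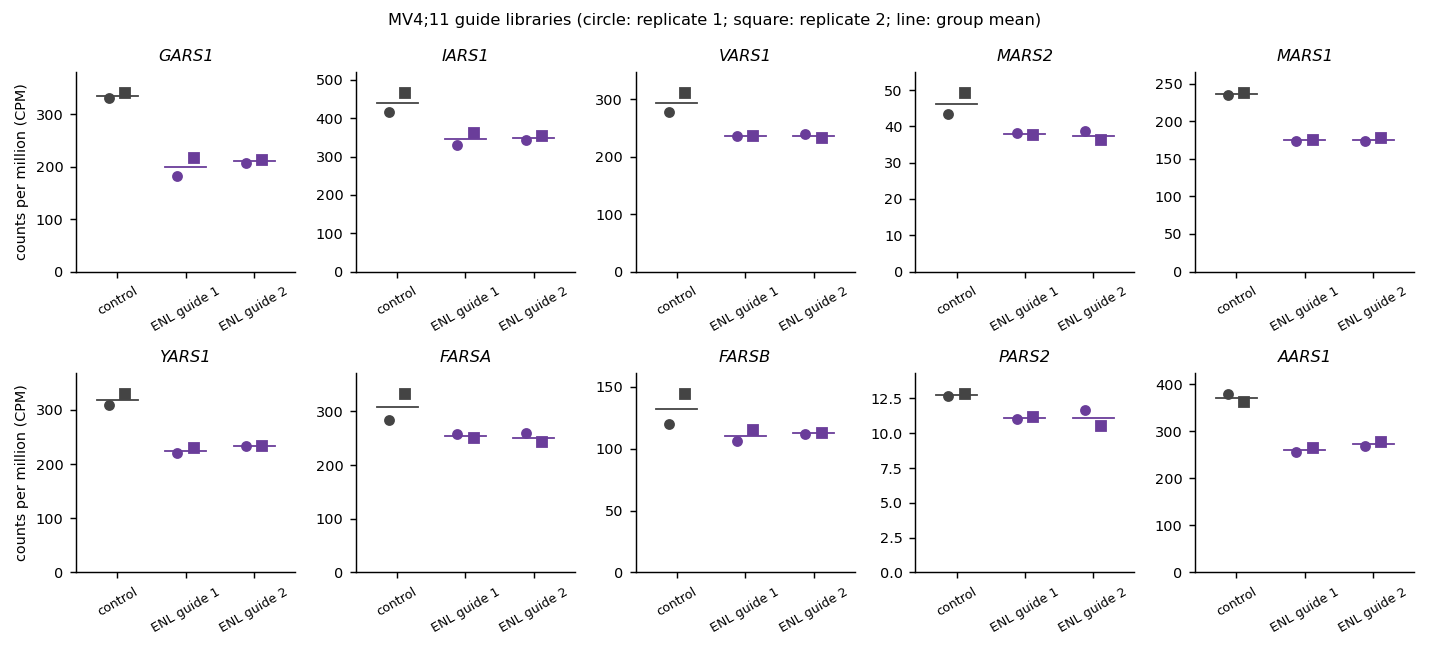
CPM of the 10 genes followed by library in the guide libraries (circles: replicate 1; squares: replicate 2; lines: group means). Both control libraries lie above all 4 ENL guide libraries in every panel, also for FARSB and PARS2, which were not called with the guides. The genes were chosen for called changes, and GARS1, YARS1 and AARS1 for those with the guides. The share of all genes separated in this way was not counted.

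Over all genes, 4.98% were called lower with the guides and 22.9% with MS41 for 24 h. Of the 12 cytosolic genes listed as ATF4 targets, the guides lowered 10, with a median log2 fold change of -0.38. Of the other 7 cytosolic genes they lowered 2 (FARSA and VARS1), with a median of -0.18. With MS41 for 24 h these subgroups were close, with 11 of 12 and 6 of 7 lower and medians of -0.48 and -0.52. The subgroups were not tested against each other, and the ATF4 list was made with earlier results of these data known. Of the 7 genes of the multi-synthetase complex, 3 fell with the guides and 6 with MS41 for 24 h, QARS1 being the exception there. The genes of its 3 scaffold proteins, AIMP1, AIMP2 and EEF1E1, all fell with MS41 for 24 h (-0.29, -0.50 and -0.42), and none was called with the guides.

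Genes that serve the same pathway were taken from lists chosen with earlier results known. ATF4 RNA fell by 0.63 ± 0.03 on the log2 scale with MS41 for 24 h and by 0.51 ± 0.08 with the guides. Of 22 tested genes of the ATF4 amino acid response, 14 fell and 3 rose with MS41 for 24 h, and 12 fell and none rose with the guides, against 44.3% and 10.3% of all genes called in these comparisons. With PFI-6 for 24 h 8 of the 22 fell (12.4% of all genes called) and with MS41N for 24 h 2 fell (0.0352%). PSAT1, an enzyme of serine synthesis, fell by 1.10 ± 0.03 with MS41 and by 1.18 ± 0.07 with the guides. SLC7A11, the cystine transporter gene, rose by 2.50 ± 0.07 with MS41 for 24 h, and with the guides it was not called (-1.48 ± 0.42). ATF4 also rose in DMSO from 6 to 24 h, by 0.56 ± 0.03. In that comparison 9 of the 22 rose and 8 fell, against 16.7% of all genes called higher and 13.5% called lower. Of the 12 cytosolic genes listed as ATF4 targets 6 rose and 1, WARS1, fell.

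Upstream of the charging step, all 5 genes of transfer RNA maturation and export fell with MS41 for 24 h. XPOT, the transfer RNA exporter, fell by 0.56 ± 0.02. Of all genes, 22.9% were called lower with MS41 for 24 h and 4.98% with the guides. With the guides XPOT was the only one of the 5 called (-0.33 ± 0.07). Downstream, all 6 mitochondrial translation factors fell with MS41 for 24 h, with GFM1 the lowest (-0.49 ± 0.03), and TSFM alone was called with the guides. Of 4 tested cytosolic elongation factors 2 fell and 1, EEF2, rose with MS41 for 24 h, with a median of -0.07, and none was called with the guides. Of the sensors, EIF2AK4 rose by 0.16 ± 0.03 with MS41 for 24 h, while GCN1 and EIF2S1 fell.

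Other values moved with the falls. Of all genes, 44.3% were called with MS41 for 24 h and 10.3% with the guides. Myeloid markers rose, 5 of 6 called with MS41 for 24 h and 4 of 6 with the guides. Their summed level went from 1810 to 1830 CPM with DMSO to 2980 to 3150 CPM with MS41 for 24 h, and from 1640 to 1790 CPM with the control guide to 2630 to 2960 CPM with the ENL guides. Most of this rise was LYZ. Its highest library went from 1480 to 2730 CPM with MS41 for 24 h, and from 605 CPM to 1640 and 1370 CPM with the ENL guides. With MS41 for 24 h the highest library of CSF3R went from 28.6 to 65.8 CPM and of MPO from 5.49 to 7.91 CPM. CD33 (97.6 to 102 CPM) and SPI1 (99.2 to 109 CPM) moved little, and AZU1 went down (153 to 134 CPM). With MS41 for 24 h the share of counts from the mitochondrial genome was 5.86% to 7.04%, against 5.20% to 5.41% with DMSO. With the ENL guides it was 3.82% to 4.66%, against 3.19% to 3.58% with the control guide. Of the T and NK markers NKG7 rose (1.09 ± 0.08 with MS41 for 24 h and 0.57 ± 0.08 with the guides), and the list's sum went from 6.06 to 7.09 CPM with DMSO to 13.3 to 14.4 CPM with MS41 for 24 h, and from 34.7 to 37.5 CPM with the control guide to 46.4 to 57.4 CPM with the ENL guides. The defining T-cell markers CD3D, CD3E and CD2 were at 0 to 0.0331 CPM in all these libraries. ITGA2B, a megakaryocyte marker, also rose (0.68 ± 0.14 with MS41 for 24 h and 0.92 ± 0.09 with the guides). MYC was lower by 1.23 at 6 h and 0.95 at 24 h on the log2 scale with MS41, and with the guides it was not called (-0.23 ± 0.08). The part of these in the synthetase values was not tested. Of 8 interferon response genes 5 rose with MS41 for 24 h, while WARS1 fell by 0.30 ± 0.03.

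In SEMK2 none of the 35 genes was called with MS41 in edgeR, against 1.36% of all 21433 genes called and 0.518% called lower. DESeq2 called 2 (MARS1 and MARS2), and 14 genes had an unadjusted p below 0.05, 13 of them lower. The median log2 fold change was -0.07 for the cytosolic and -0.08 for the mitochondrial genes, and 32 of the 35 values were below 0. MARS1 stood at 219, 224 and 213 CPM with DMSO and at 198, 196 and 197 CPM with MS41, without overlap (-0.15 ± 0.03, adjusted p = 0.052 in edgeR). MARS2 stood at 42.8, 42.9 and 42.4 CPM with DMSO and at 38.5, 37.3 and 37.5 CPM with MS41 (-0.18 ± 0.04, adjusted p = 0.08). GARS1, the first gene in MV4;11, stood at 116, 111 and 114 CPM with DMSO and at 108, 105 and 109 CPM with MS41, with a 95% interval of the log2 fold change from -0.16 to -0.0012.

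The count of SEMK2 calls depended on DMSO replicate 3. It had the lowest level of VARS1 (230 CPM, against 257 and 264) and of FARSA (97.3 CPM, against 117 and 122) in its group. Without it 12 of the 35 genes were lower and 1 (NARS2) was higher, 13.5% of all genes were called, and the median over the 35 was -0.08 rather than -0.07 (cytosolic -0.06, mitochondrial -0.10). MARS1 was then called (-0.17, adjusted p = 0.0003 in edgeR), as was MARS2 (-0.18, adjusted p = 0.0064), and GARS1 was not (-0.08, adjusted p = 0.15). Without this library the largest falls were those of FARSA (-0.23) and VARS1 (-0.22). The largest cytosolic fall with MS41 for 6 h in MV4;11 was -0.23. The medians in SEMK2 stayed small with or without this library. The SEMK2 effect was not tested against the MV4;11 effect, since the tables were fitted separately.

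**Figure D5:**
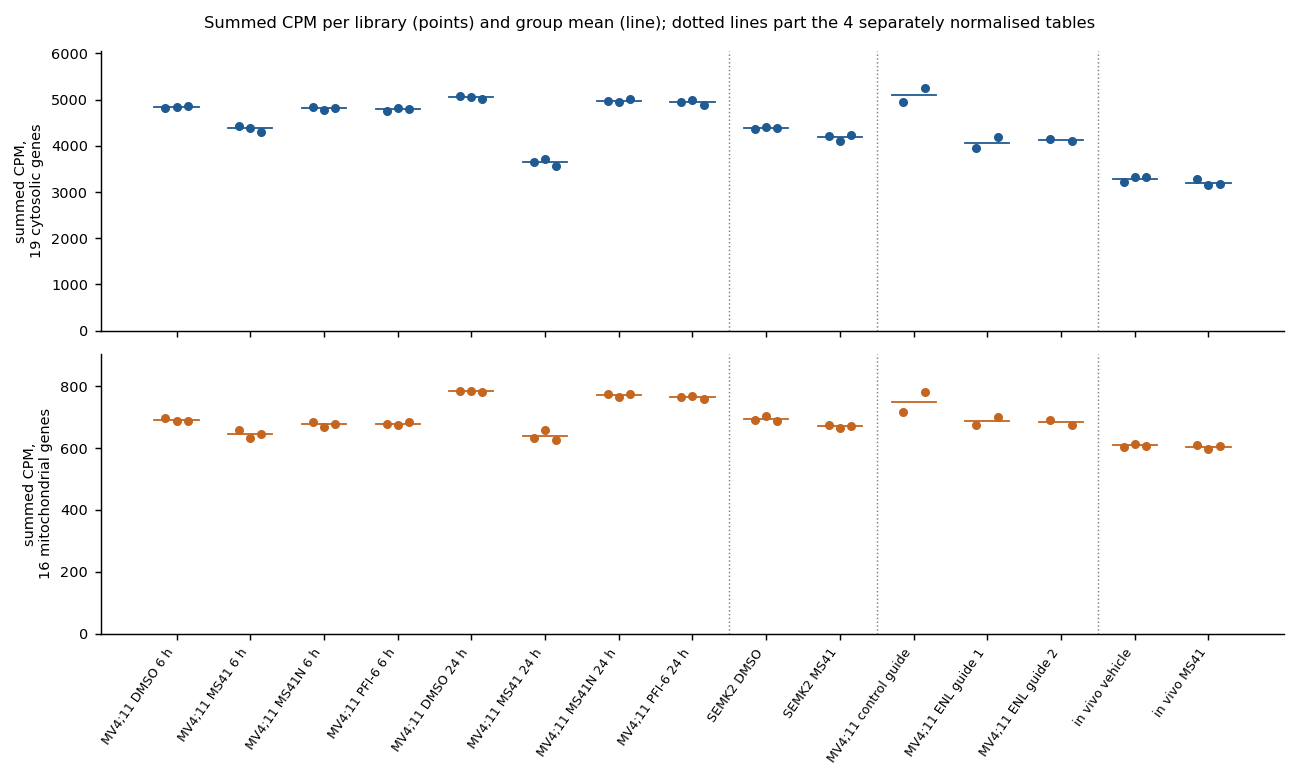
Summed CPM of the 19 cytosolic genes (upper panel) and the 16 mitochondrial genes (lower panel) in every library, with group means as lines and dotted lines between the 4 separately normalised tables. In MV4;11 the MS41 libraries at 24 h have the lowest cytosolic sums of their table, from 3563 to 3721 CPM.

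In the cells from mice none of the 35 genes was called in edgeR or DESeq2, 1 (VARS1) had an unadjusted p below 0.05, and 0.0328% of all 21337 genes were called. The median log2 fold change was -0.03 for the cytosolic and 0.01 for the mitochondrial genes, and the values ranged from -0.16 to 0.10. VARS1 stood at 183, 185 and 180 CPM with vehicle and at 165, 163 and 168 CPM with MS41, without overlap (-0.15 ± 0.05, adjusted p = 0.60). GARS1 stood at 166, 185 and 179 CPM with vehicle and at 188, 168 and 175 CPM with MS41, and the groups overlapped. Its 95% interval ran from -0.15 to 0.15. That interval rests on the altered replicate spread described next, so it cannot exclude a fall of the size seen in culture. The mean of each same-numbered vehicle and MS41 pair was nearly constant, with a median SD over pairs of 0.00069 on the log2 scale across 9399 genes, where the other matchings gave 0.0278 to 0.0459. The labels describe no step that would give this, and the replicate spread and tests of this table carry it.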

How the data were processed

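Libraries of polyadenylated RNA were made with standard Illumina protocols, and in vivo with a SMART-Seq v4 low-input kit, per the labels' protocols. Tools named in the submitters' processing notes are HISAT2 2.1.0, HTSeq 0.11.3 and CASAVA 1.8, with build hg38 and no settings. The deposited values of the MV4;11 compound, SEMK2 and guide tables are read counts per gene, as the authors left them. The deposited in vivo values are whole numbers but are treated as estimated counts, because same-numbered libraries mirror each other and no label says what the authors did to them. That table was fitted with a term for the replicate number.

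Gene models are GENCODE 29. In R 4.3.3, edgeR 4.0.16 was run with its default filter on low counts, TMM scaling and robust quasi-likelihood fits, 1 per table, with all 24 MV4;11 compound libraries in 1 fit. The p-values were adjusted over all genes of a comparison by the Benjamini-Hochberg method, and values below 0.05 are called. CPM are counts per 1000000 of the TMM-scaled library size. Residual degrees of freedom were 16, 4, 3 and 2 in the compound, SEMK2, guide and in vivo fits. Fits were tested on simulated counts. Alternatives were RLE scaling, no filter, a removed GC trend, a replicate block, only the groups compared, DESeq2 1.42.0 and leaving out each library.

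The members, context lists and marker lists were chosen with earlier results of these data known. Every member may be named. Values per library are given for the first 8 called members by size of change with MS41 for 24 h, the first 3 called each way with MS41 for 6 h, in SEMK2 and with the ENL guides, and the largest called difference between times. Other members shown by library were chosen after their values were seen. Replicate numbers of MV4;11 compound and SEMK2 libraries did not pair samples: correlations of same-numbered deviations ranged from -0.39 to 0.42 and were not above 0.1 in every pair of any comparison. No library was a copy of another in its group, with a chi-square of at least 4.27 per gene. Promoter windows were not used for LARS1, VARS1, YARS1, AARS2 and VARS2, which have no entry in the table.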

Additional observations from a re-analysis of the deposited data

Results flagged for a closer look

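The effect of MS41 in MV4;11 differed between 24 h and 6 h for 9 of the 10 genes whose values are given by library, by the test of that difference in edgeR. The differences, as log2 values of the 24 h effect less the 6 h effect, were -0.55 for GARS1, -0.50 for MARS1, -0.48 for VARS1, -0.45 for IARS1 and -0.40 for YARS1. They were -0.38 for AARS1, -0.37 for FARSA, -0.34 for FARSB and -0.19 for MARS2. PARS2 was the exception (-0.21, adjusted p = 0.11).

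For 3 genes the libraries with MS41 were all on the opposite side of their controls from MV4;11 with MS41 for 24 h, a difference that was not tested. NARS2 was higher in SEMK2 with MS41 (0.12). In the cells from mice NARS1 (0.04) and RARS2 (0.10) were higher with MS41. None of the 3 was called there. Other members were separated in the same direction as in MV4;11, such as VARS1 in the cells from mice and MARS1 in SEMK2. The share of all genes separated in this way was not counted, so nothing about these 3 genes is concluded from it.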

How the results depend on the processing

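With MS41 for 24 h the count of members called was 29 to 31 under every alternative, with MS41 for 6 h 20 to 23, for the difference between the times 25 to 28, and for DMSO 24 h against 6 h 19 to 23. No called member changed sign in these comparisons, with PFI-6 for 24 h or with the guides. MS41 against MS41N (16 to 24 at 6 h, 29 to 32 at 24 h) and against PFI-6 (14 to 21, 29 to 30) stayed within 1.5 times. With PFI-6 for 6 h, 1 call became 2 with the GC trend removed, 3 with only the groups compared, 2 in DESeq2 and 0 when leaving out any library. With no filter the count stayed at 1, but the gene called was a cytosolic one and not MARS2. With PFI-6 for 24 h, 8 calls became 1 with the GC trend removed. PFI-6 against MS41N at 24 h went from 0 to 1 with no filter and 2 with only the groups compared.

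In SEMK2 0 calls became 2 with no filter, 5 with the GC trend removed and 2 in DESeq2, and leaving out a library gave 0 to 13. The share of higher genes among all SEMK2 calls was 44.2% with the GC trend removed, where 180 of 291 were higher in the main analysis. The replicate block gave 3 calls in SEMK2, 18 with the guides in place of 14 and 29 with MS41 for 24 h, and the in vivo table with no replicate block gave 1 call (VARS1) in place of 0. The guides have 2 same-numbered pairs per comparison, with correlations of 0.67, 0.01 and 0.24. The replicate block moved no other count of called members by over 1.5 times. Leaving out a library gave 10 to 22 calls with both guides, 6 to 19 with guide 1 and 3 to 18 with guide 2. With only the groups compared guide 1 gave 6. The cause of these shifts was not tested. With the longest transcript as length, the median level in DMSO for 24 h went from 11.2 to 12.7 CPM per kb for mitochondrial genes and from 68.5 to 68.6 for cytosolic genes.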
